A study of Mus musculus with 6 samples.

Results

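The insulin-like growth factor (IGF) system is described here through its ligands Igf1 and Igf2, its receptors Igf1r and Igf2r, and its binding proteins Igfbp2 to Igfbp7, taken as the rows of the deposited gene table that carry these symbols. Of 10 genes listed, 7 had a row among the 15836 rows of the table, and 6 of these 7 passed the filter on low counts and were tested. The symbols Igf2, Igfbp2 and Igfbp5 matched no row and are not analysed here. The RNA came from cultured cells of a mouse line that the labels call CAF, with a pancreatic tumor as the tissue, and CAF is the field's usual short form for cancer-associated fibroblast. The 3 control libraries have the genotype wt and the treatment control, and the 3 MAOA-KO libraries have the genotype MAOA ko and the treatment MAOA knockout, while another label field of the same libraries says knockdown. Maoa encodes a mitochondrial monoamine oxidase that breaks down serotonin. No label says how the gene was disrupted, whether the line is 1 clone, or whether replicates were separate cultures, so p-values measure the spread between these 6 libraries, which may be technical.

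IGF1 and IGF2 are secreted growth factors that act mainly through the tyrosine kinase receptor encoded by Igf1r. The protein encoded by Igf2r does not signal in that way. It removes IGF2 from the cell surface for breakdown and also carries newly made lysosomal enzymes that bear mannose 6-phosphate. The binding proteins hold IGFs outside the cell, prolong their lifetime or keep them from the receptor, and are cut by proteases. In tumours, fibroblasts are known as a source of IGFs and of their binding proteins.

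Library totals ran from 18631359 to 26645441 counts, and 3 counts corresponded to between 0.110 and 0.156 CPM (counts scaled to library size with TMM factors), a floor that covers counting error only. The row named Maoa had 49.0 ± 0.921 CPM in the controls (mean ± SD of 3 libraries, as throughout) and a lower 24.9 ± 0.639 CPM in MAOA-KO. That row lists a locus on chromosome 19 rather than the annotated Maoa locus, so whether it checks the labels is not settled by the table; each of the 7 rows described here lists the locus of its own gene. Among 17 fibroblast markers 12 had no row or stayed under 10 CPM in each library, Col1a1 and Pdgfra among them, whereas Vim lay between 1769.8 and 3475 CPM. Of the 10 tested, 3 were called higher (Acta2, Fbln2 and Col3a1) and 4 lower (Col1a1, Pdgfra, Pdgfrb and Vim). The summed level of the fibroblast markers, nearly all Vim, was 3656 to 3805 CPM in the controls and 2131 to 2202 CPM in MAOA-KO. Of 12 epithelial markers 8 had no row or stayed under 10 CPM, with Epcam at 0.451 CPM or less and Krt18 at 686 to 952 CPM, and of 7 tested, 4 were called lower (Krt7, Krt8, Krt18 and Krt19) and 1 higher (Muc1). The epithelial markers summed to 2106 to 2235 CPM in the controls and 1218 to 1288 CPM in MAOA-KO. Calls fell on 70% of the fibroblast markers tested and 71.4% of the epithelial ones, near the 73.9% of all genes tested. Of 11 leukocyte markers 7 had no row, Ptprc included, and of 8 endothelial markers 4 had none, Cdh5 included. The leukocyte markers summed to 83.7 to 86.6 CPM in the controls and 68.2 to 75.8 CPM in MAOA-KO, with Cd68 called lower and Cd14 not called. Mrc1 had 117, 143 and 160 counts in the controls and 11, 9 and 4 in MAOA-KO. It passed the filter on low counts only through the controls, so no call is given. The endothelial markers summed to 5.32 to 6.07 CPM and to 0.877 to 1.05 CPM, a sum that was nearly all Sele in the controls, while Tek had 1, 1 and 1 counts in the controls and 14, 11 and 7 in MAOA-KO. All 18 genes of a G2 and M phase list were called lower in MAOA-KO, against 36.9% of all genes tested. Their summed level was 1523 to 1579.7 CPM in the controls and 249 to 264 CPM in MAOA-KO. The part of these shifts in the results below was not tested, and in bulk RNA fewer cells of a type and less RNA per cell cannot be told apart.

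Comparing MAOA-KO with control asks how expression of the IGF system differs in cells in which Maoa was targeted. Transcripts of the binding protein Igfbp7 and of the receptor Igf2r were higher in MAOA-KO, by 2.25-fold and 1.49-fold, and those of the binding proteins Igfbp4 and Igfbp3 were lower, by 1.38-fold and 1.19-fold. Igf1r differed by 1.07-fold and the scarce Igfbp6 by 1.66-fold, and neither of these 2 calls held under every alternative. The call of Igfbp3 held under each alternative except the test against a 1.2-fold change. Igf1 itself was at or near the detection floor in both groups. In all, 3 members were called higher (Igf1r, Igf2r and Igfbp7) and 3 lower (Igfbp3, Igfbp4 and Igfbp6) at an adjusted p of 0.05, where 73.9% of the 13243 genes tested were called, 37.0% higher and 36.9% lower. A call was therefore the usual outcome for a tested gene in this comparison. Control and MAOA-KO libraries did not overlap in CPM for 5 of the 7 rows, the exceptions being Igf1 and Igfbp6. Over all genes tested, a set that leaves out Igf1, the share without overlap was 75.1%.

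**Figure D1:**
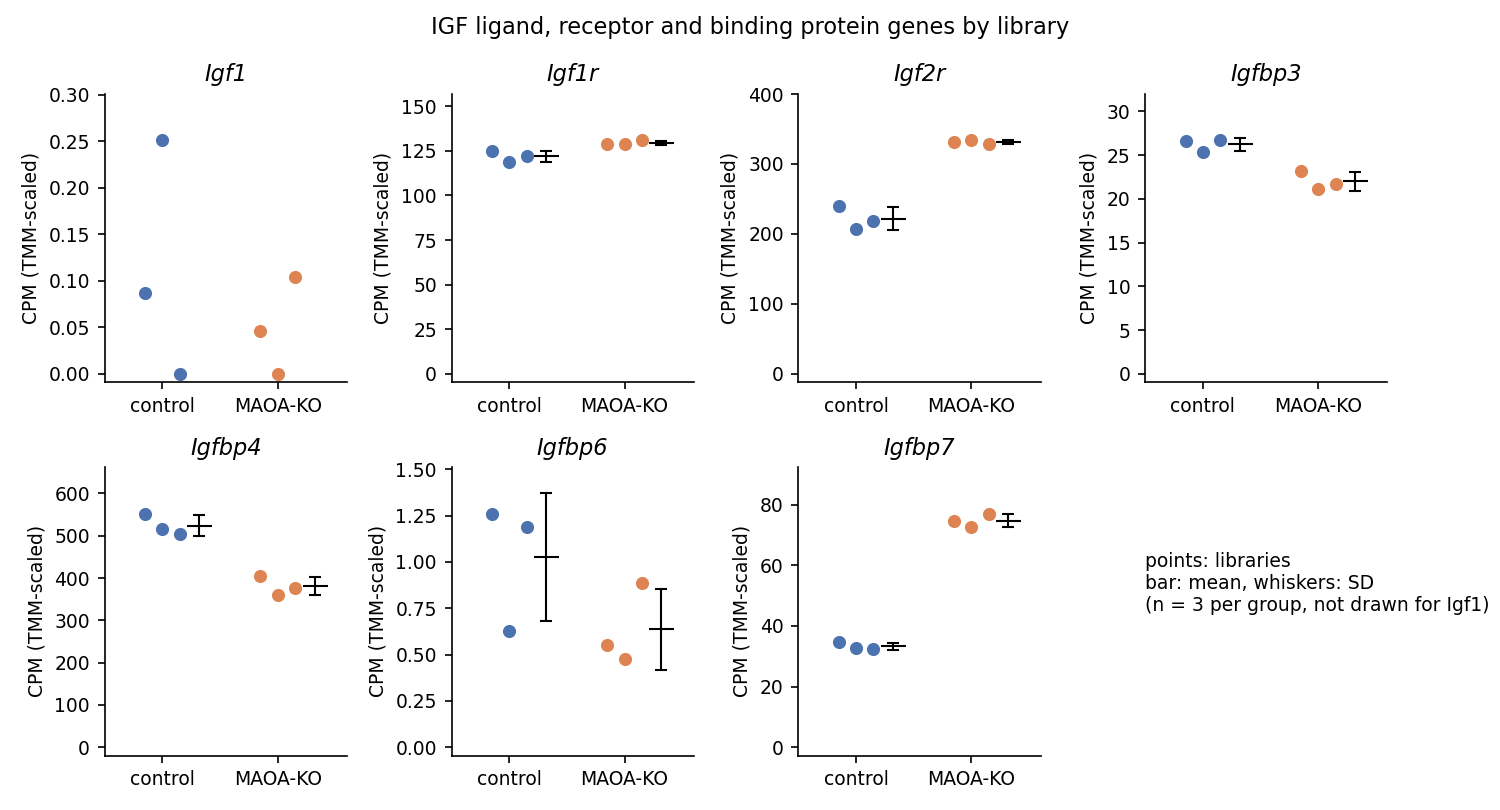
TMM-scaled CPM of the 7 IGF system genes with a row, 1 point per library, with the mean and SD of each group (n = 3) except for Igf1. Igf2r and Igfbp7 sit higher and Igfbp3 and Igfbp4 lower in each MAOA-KO library than in each control library, Igf1r lies in narrow bands 1.07-fold apart, and Igf1 and Igfbp6 overlap.

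Among the ligands, Igf1 (ENSMUSG00000020053, chromosome 10, 87858265 to 87937042, plus strand, GRCm38) had 2, 6 and 0 counts in the controls and 1, 0 and 2 in MAOA-KO. In 5 of the 6 libraries it had 3 counts or fewer, so no difference was detectable at this depth, and no fold is given. The overlapping antisense gene Igf1os had no row. Nothing can be said here of Igf2, the other ligand, but H19, the noncoding RNA made from the neighbouring imprinted gene that shares enhancers with Igf2, was measured. It had 4, 5 and 4 counts in the controls and 33, 52 and 33 in MAOA-KO. Its level was 0.182 ± 0.024 CPM in the controls, close to the floor, and 1.71 ± 0.194 CPM in MAOA-KO. H19 passed the filter on low counts only through the MAOA-KO libraries, so these values are given as a description, with no test.

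Of the receptors, Igf1r (ENSMUSG00000005533, chromosome 7, 67952827 to 68233668, plus strand, 21 exons in the counted transcript) stood at 125, 119 and 122 CPM in the controls and 129, 129 and 131 CPM in MAOA-KO. The groups were close without overlapping. The log2 fold change was 0.09 ± 0.04 (± SE; edgeR quasi-likelihood test, Benjamini-Hochberg adjusted p = 0.0362), a smaller absolute change than that of most genes, since only 14.5% of those tested changed less. With library totals as the only scaling the log2 fold change was 0.18. The call was lost in DESeq2 (adjusted p = 0.0818), without filtering (0.0623) and against a 1.2-fold change. It was also lost without control replicate 2 (0.183), control replicate 3 (0.0905), MAOA-KO replicate 2 (0.0601) or MAOA-KO replicate 3 (0.110). In the authors' deposited table its adjusted p was 0.0818.

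Igf2r (ENSMUSG00000023830, chromosome 17, 12682406 to 12769664, minus strand, 48 exons) stood at 239.9, 207 and 219 CPM in the controls and 332, 334 and 329 CPM in MAOA-KO. Each MAOA-KO library exceeded each control library, and the MAOA-KO libraries lay closer together than the controls. Igf2r rose by 0.58 ± 0.04 on the log2 scale (adjusted p = 4.98e-12), which moved the ratio of Igf2r to Igf1r, in FPKM, from between 2.25 and 2.45 in the controls to between 3.23 and 3.31 in MAOA-KO. The exact two-sided permutation test gave p = 0.1 for Igf1r and for Igf2r, the smallest value that 3 libraries against 3 allow. Airn, the imprinted noncoding RNA that runs antisense to Igf2r and is known to silence its paternal copy in mouse tissues, rose as well. It had 3.38, 3.64 and 3.36 CPM in the controls and 8.20, 9.21 and 8.13 CPM in MAOA-KO, which is 1.30 ± 0.11 on the log2 scale (adjusted p = 3.82e-11). The annotated exons of the genes share 0 bases, although 405 of the 8887 bases of the counted Igf2r transcript lie under the span of Airn. The strand setting of the counting is not given in the sources used here, so reads from the opposite strand there cannot be told apart. Per length, Airn had 3.92 ± 0.17 FPKM in the controls and 10.2 ± 0.698 FPKM in MAOA-KO, where Igf2r had 24.3 ± 1.84 and 38.5 ± 0.265 FPKM, and the part of Airn in the Igf2r counts was not tested. The FPKM of Airn implies a counted length of 856 bases, a small part of its span from 12741311 to 12860136.

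The promoters of Igf2r, Igfbp7 and Igfbp4 are shown because these members had the changes that held under each alternative tried. Each is the RefSeq window on GRCm38.p6 from 250 bases before to 50 bases after the annotated start, at chr17:12769657-12769956 on the minus strand for Igf2r, chr5:77407996-77408295 on the minus strand for Igfbp7 and chr11:99040994-99041293 on the plus strand for Igfbp4. Capitals mark the E-box CACGTG, the TATA motif TATAAA and the GC box GGGCGG on either strand, motifs chosen after the sequences had been seen.
Igf2r: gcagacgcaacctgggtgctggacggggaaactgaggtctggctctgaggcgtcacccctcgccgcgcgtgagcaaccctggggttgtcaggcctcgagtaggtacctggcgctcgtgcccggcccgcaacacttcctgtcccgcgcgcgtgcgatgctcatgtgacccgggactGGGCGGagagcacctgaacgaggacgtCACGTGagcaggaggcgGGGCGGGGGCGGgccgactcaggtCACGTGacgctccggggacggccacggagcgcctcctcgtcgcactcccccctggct
Igfbp7: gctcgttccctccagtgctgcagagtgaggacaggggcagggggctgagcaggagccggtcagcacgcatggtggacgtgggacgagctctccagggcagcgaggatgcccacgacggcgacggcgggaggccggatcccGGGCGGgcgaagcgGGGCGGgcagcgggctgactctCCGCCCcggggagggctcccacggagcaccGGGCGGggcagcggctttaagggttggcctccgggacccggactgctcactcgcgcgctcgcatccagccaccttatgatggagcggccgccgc
Igfbp4: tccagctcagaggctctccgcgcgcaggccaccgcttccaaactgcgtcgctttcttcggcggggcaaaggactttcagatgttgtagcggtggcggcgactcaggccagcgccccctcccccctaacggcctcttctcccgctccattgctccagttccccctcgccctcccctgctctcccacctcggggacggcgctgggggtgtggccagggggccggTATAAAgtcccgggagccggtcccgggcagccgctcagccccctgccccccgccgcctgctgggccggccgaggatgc

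The Igf2r window held 2 E-boxes, beginning 48 and 7 bases before the start, both inside the longer palindrome TCACGTGA, and 3 GC boxes. This palindrome is the core of the element that MiT/TFE factors bind at lysosomal genes. Of 32851 promoter windows of the same length, 7.15% held CACGTG, 0.974% held TCACGTGA and 0.0578% held the palindrome at 2 or more places. The palindrome too was chosen after the sequences had been seen, so these shares are a description and no test. The Igfbp7 window held 4 GC boxes and neither of the other motifs, where 35.7% of all windows held a GC box. The Igfbp4 window held a TATA motif beginning 28 bases before the start, as 13.6% of all windows held one somewhere, and no GC box. Guanine and cytosine made up 70.7%, 73.3% and 71.3% of the Igf2r, Igfbp7 and Igfbp4 windows, against a median of 52.7% over all windows. These matches describe letters, not binding.

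Of the binding proteins, Igfbp7 (ENSMUSG00000036256, chromosome 5, 77349240 to 77408041, minus strand, 5 exons), a secreted protein that binds IGFs weakly and is found in matrix and around vessels, had the largest fold among the tested members. It stood at 34.6, 32.6 and 32.5 CPM in the controls and 74.5, 72.6 and 77.0 CPM in MAOA-KO. The lowest MAOA-KO library was above the highest control library by more than the spread within either group. Igfbp7 rose by 1.17 ± 0.05 on the log2 scale (adjusted p = 2.43e-17), and 88.9% of all genes tested had a smaller absolute change. Its last exon shares 85 bases with exons of Polr2b, a subunit gene of RNA polymerase II on the opposite strand, out of 1116 bases in the counted transcript. Polr2b rose by 0.37 ± 0.05 on the log2 scale (adjusted p = 9.80e-08), from 97.9 ± 2.90 to 127 ± 9.27 CPM, and its part in the Igfbp7 counts was not tested.

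Igfbp4 (ENSMUSG00000017493, chromosome 11, 99041244 to 99054392, plus strand, 4 exons), which encodes a binding protein that restrains IGF action and is cut by the protease PAPP-A, stood at 552, 516 and 504 CPM in the controls and 404, 361 and 377 CPM in MAOA-KO. Every MAOA-KO library lay below every control library. Igfbp4 fell by 0.46 ± 0.04 on the log2 scale (adjusted p = 2.93e-10), and 60.2% of genes tested changed less. Igfbp3 (ENSMUSG00000020427, chromosome 11, 7206086 to 7213923, minus strand, 5 exons), the main carrier of IGFs in blood, stood at 26.6, 25.4 and 26.7 CPM in the controls and 23.2, 21.1 and 21.7 CPM in MAOA-KO. The groups again did not overlap. Igfbp3 fell by 0.26 ± 0.06 (adjusted p = 0.000385), a change that did not pass a test against 1.2-fold (adjusted p = 0.477).

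Igfbp6 (ENSMUSG00000023046, chromosome 15, 102144362 to 102149511, plus strand, 4 exons), whose protein prefers IGF2, had 29, 15 and 29 counts in the controls and 12, 13 and 17 in MAOA-KO. In CPM these were 1.26, 0.628 and 1.19 against 0.550, 0.475 and 0.886, so the groups overlapped. The log2 fold change was -0.73 ± 0.30 (adjusted p = 0.0324; exact permutation p = 0.2). The call was lost in DESeq2 (adjusted p = 0.131) and with library totals as the only scaling (0.0548). It was also lost without control replicate 1 (0.141), control replicate 3 (0.123), MAOA-KO replicate 1 (0.0622) or MAOA-KO replicate 2 (0.143). In the authors' deposited table its adjusted p was 0.131.

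Levels of different genes were compared per transcript length, in the FPKM that the authors deposited. In the controls the order ran from Igfbp4 (133 ± 6.39 FPKM) through Igfbp7 (28.9 ± 1.07), Igf2r (24.3 ± 1.84), Igfbp3 (10.5 ± 0.317) and Igf1r (10.4 ± 0.312) to Igfbp6 (0.894 ± 0.303), with Igf1 last at 0.0345 FPKM or less. Igfbp3 and Igf1r were the only neighbours in that order whose ranges over the 3 libraries overlapped. In MAOA-KO the order was Igfbp4 (102 ± 6.20), Igfbp7 (69.0 ± 2.11), Igf2r (38.5 ± 0.265), Igf1r (11.7 ± 0.0815), Igfbp3 (9.37 ± 0.482), Igfbp6 (0.590 ± 0.203) and Igf1, with no overlap between neighbours. Igfbp4 went from 4.59 times the level of Igfbp7 to 1.48 times.

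**Figure D2:**
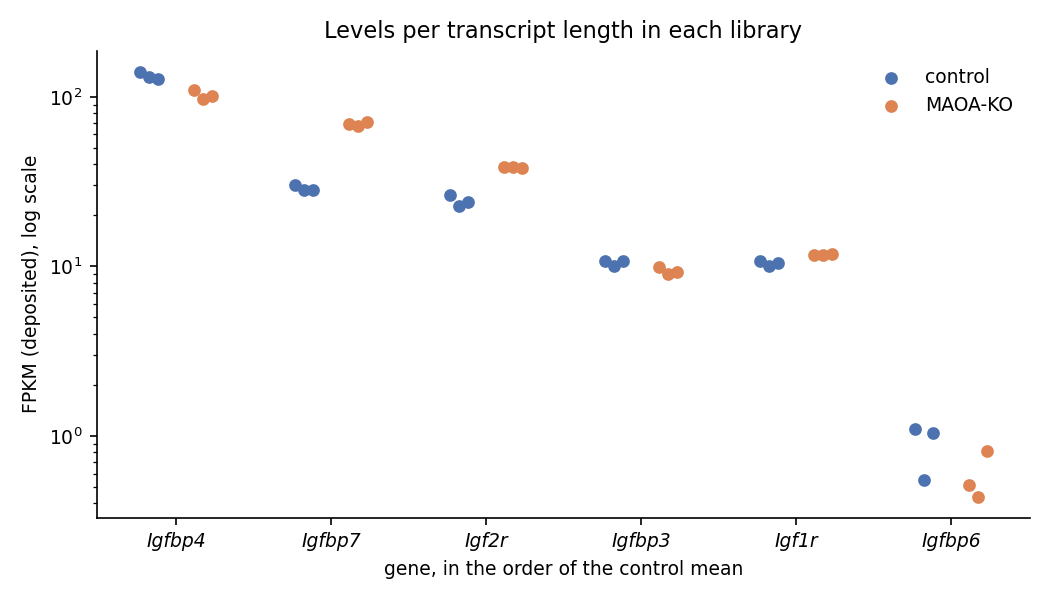
Deposited FPKM on a log axis for the 6 tested genes, 1 point per library, in the order of the control mean. Igfbp4 leads in both groups, and the gap between Igfbp4 and Igfbp7 narrows from 4.59-fold to 1.48-fold in MAOA-KO.

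The summed FPKM of the 4 binding proteins with a row ranged from 168 to 182 in the controls and from 173 to 189 in MAOA-KO, so the sums overlapped while the make-up differed. Igfbp4 supplied 76.2% to 77.0% of the sum in the controls and 55.5% to 57.9% in MAOA-KO. Igfbp7 supplied 16.6% to 16.8% in the controls and 36.6% to 39.0% in MAOA-KO. Igfbp3 went from 5.86% to 6.38% down to 5.07% to 5.25%, and Igfbp6 stayed under 1% in each library. Igfbp2 and Igfbp5 are not in these sums.

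**Figure D3:**
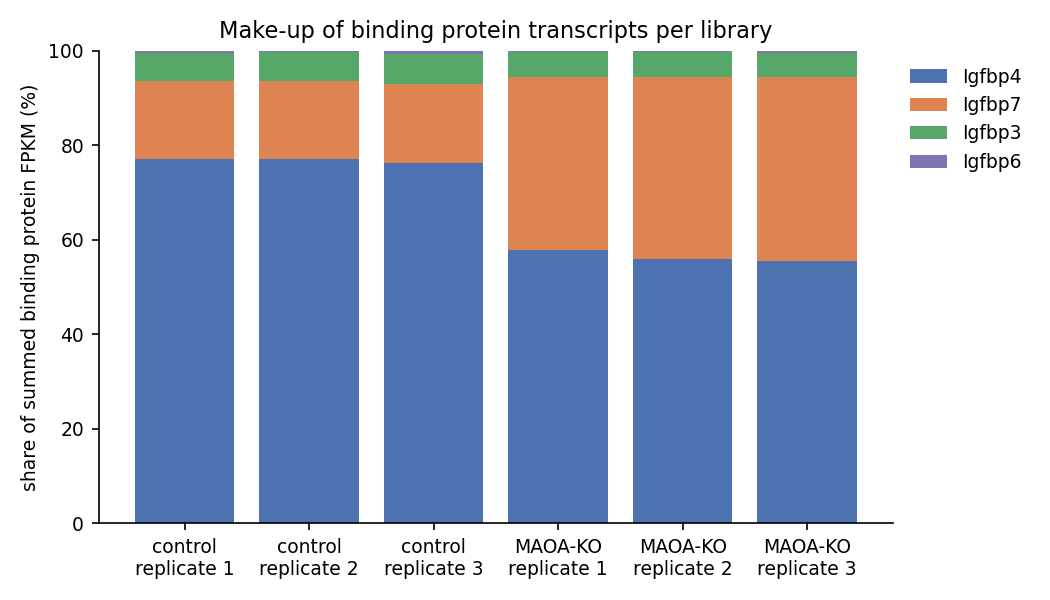
Share of the summed FPKM of Igfbp3, Igfbp4, Igfbp6 and Igfbp7 taken by each gene in each of the 6 libraries. The share of Igfbp7 lies between 16.6% and 16.8% in the controls and between 36.6% and 39.0% in MAOA-KO.

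A list for the mannose 6-phosphate route, the other role of Igf2r, held genes that add or bind the tag beside adaptor, retromer and other sorting genes. Its members were called higher more often than lower. Of 20 genes of this list, all tested, 12 rose and 4 fell, where 37.0% of all genes tested were called higher and 36.9% lower. Calls fell on 80.0% of them, near the 73.9% of all genes tested. The median of their log2 fold changes was 0.38, against 0.00 over all tested genes. This list was chosen with earlier results of these data known. Gnptab and Gnptg, subunits of the transferase that adds the tag, rose by 0.69 ± 0.04 and 1.00 ± 0.06 on the log2 scale (adjusted p = 2.99e-13 and 1.34e-13). The retromer subunit Vps26a rose by 0.82 ± 0.04, and Plin3, once described as a binder of the tails of mannose 6-phosphate receptors, by 0.84 ± 0.04. Sort1, a sorting receptor for lysosomal and secreted proteins, went from 2.67 ± 0.311 to 25.3 ± 0.379 CPM, 9.46-fold. The receptor M6pr, which shares the sorting role of Igf2r, stood at 275, 283 and 280.3 CPM in the controls and 292, 288 and 289.6 CPM in MAOA-KO. Its groups did not overlap, but its difference of 0.05 ± 0.04 on the log2 scale did not pass (adjusted p = 0.163). The genes that fell were the clathrin adaptor subunits Ap1b1, Ap1m1 and Ap1s1 and the sorting nexin Snx5, at -0.15, -0.54, -0.61 and -0.40 on the log2 scale.

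**Figure D4:**
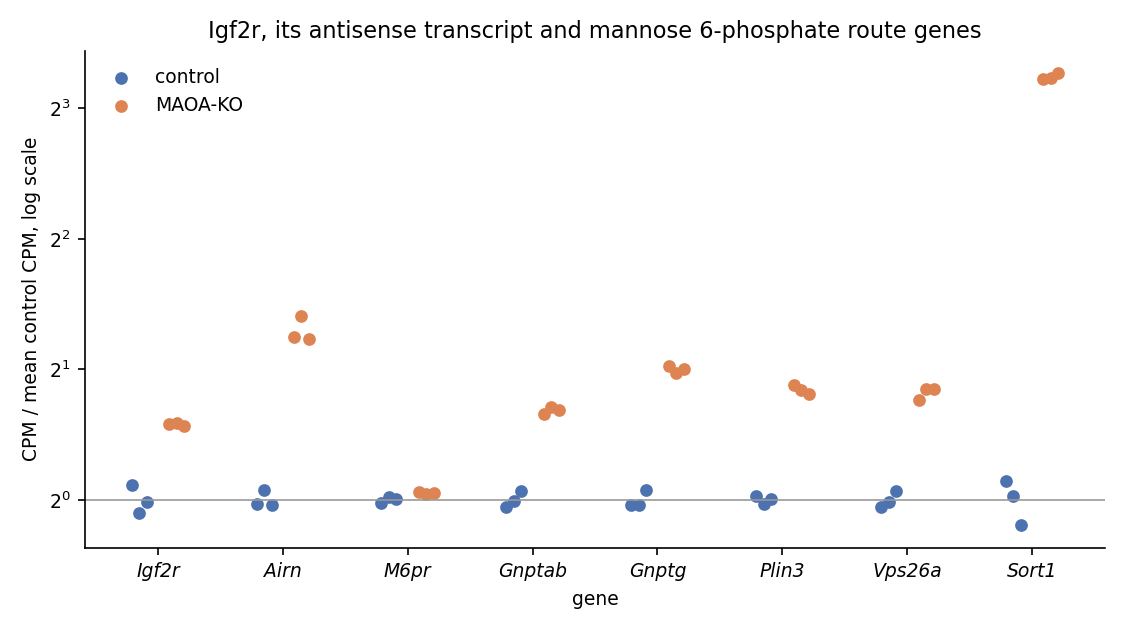
CPM of Igf2r, its antisense transcript Airn and 6 genes of the mannose 6-phosphate route, each divided by its control mean, on a log axis with 1 point per library. The 6 route genes are those of lowest p or used in the background text, and Ap1b1, Ap1m1, Ap1s1 and Snx5, which fell, are not drawn. The MAOA-KO libraries lie above the controls for the 8 genes shown, with M6pr 1.04-fold and Sort1 9.46-fold apart.

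Genes that cut or modulate binding proteins moved in both directions. Of 27 listed, 18 had a row and 15 were tested, of which 6 rose and 7 fell (median log2 fold change 0.03), where 37.0% of all genes tested rose and 36.9% fell. Lrp2, among those that rose, and Adam12, among those that fell, passed the filter on low counts only through the group where each was high. Their calls, still in these counts, are not read as results. Pappa, which encodes the protease that cuts Igfbp4, had 1, 1 and 0 counts in the controls and 5, 4 and 1 in MAOA-KO and was not tested. Stc1 and Stc2, whose products block this protease, fell from 7.07 ± 0.499 to 3.98 ± 0.257 CPM and from 87.9 ± 0.486 to 67.2 ± 1.01 CPM (adjusted p = 1.81e-07 and 4.71e-09). Ctsd, a lysosomal protease that can cut binding proteins, rose from 172 ± 6.84 to 374 ± 15.6 CPM, 2.17-fold. The secreted protease Htra1 rose by 0.16 ± 0.04 on the log2 scale, and the protease Adamts1 fell by 0.32 ± 0.05. Igfals, which encodes the third partner of IGF complexes in blood, had no row.

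Downstream of the receptors, 41 of 45 listed components were tested, of which 14 rose and 16 fell (median log2 fold change -0.02). The 73.2% called is at the level of all genes tested, 73.9%. Grb14, among those that fell, passed the filter on low counts only through the control libraries. Its call, still in these counts, is not read as a result. With library totals as the only scaling 20 rose and 7 fell, so the balance of this list depends on the scaling. The adaptor gene Irs1, which carries the signal of both the IGF1 and the insulin receptor, rose from 13.2 ± 0.686 to 33.8 ± 0.997 CPM, 2.56-fold (adjusted p = 2.58e-16). Irs2 and the insulin receptor gene Insr each rose 1.21-fold, with adjusted p of 0.000122 and 1.05e-06. Tsc1, a brake on growth signalling, rose 1.72-fold, and Socs3, a feedback inhibitor, 1.90-fold. Arrb1, a beta-arrestin that takes part in turnover of the IGF1 receptor, was 2.18-fold lower, from 35.6 ± 2.47 to 16.3 ± 0.565 CPM. Igf1r itself differed by 1.07-fold between the same groups.

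The last list held imprinted growth genes and the binders of Igf2 mRNA. It has 22 names, 1 of them an older name of another, of which 15 had a row and 13 were tested. Of these, 4 were called higher and 6 lower (median log2 fold change 0.08). Of the 4, H19 and Slc22a18 passed the filter on low counts only through the MAOA-KO libraries. Their calls, still in these counts, are not read as results. The 76.9% called is near the 73.9% of all genes tested. Besides Airn, the growth-restraining Cdkn1c rose from 0.952 ± 0.114 to 4.69 ± 0.551 CPM, 4.91-fold. Igf2bp1, whose product binds Igf2 mRNA and other mRNAs, fell from 15.0 ± 0.496 to 6.59 ± 0.24 CPM, and the far more abundant Igf2bp2 from 227 ± 1.34 to 207 ± 2.45 CPM, 1.10-fold (adjusted p = 1.50e-12 and 0.00140). Igf2bp3 had 0.860 ± 0.312 and 1.21 ± 0.0673 CPM and did not pass (adjusted p = 0.0729). Hmga2, a chromatin protein gene that acts upstream of Igf2bp2 in mouse muscle, fell from 382 ± 2.80 to 220.1 ± 1.86 CPM.

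**Figure D5:**
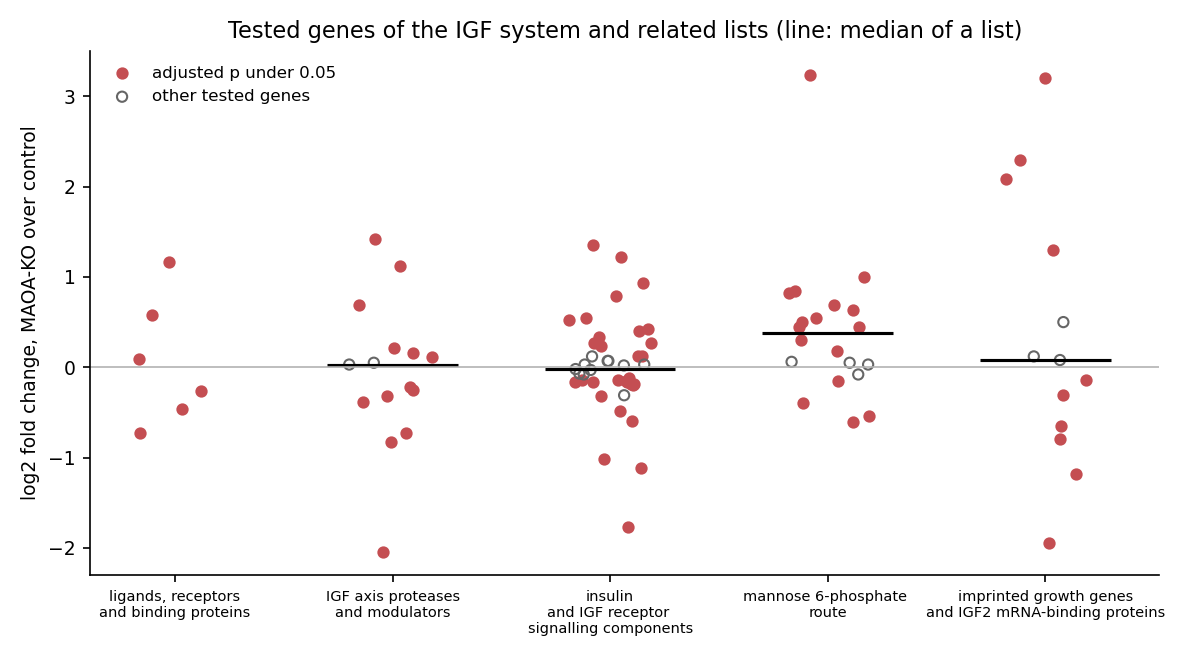
Log2 fold change of each tested gene in the IGF system and in 4 related lists, filled where the adjusted p was under 0.05, with a line at the median of each related list. Grb14, H19, Slc22a18, Lrp2 and Adam12 are included, although each passed the filter on low counts only through the group where it was high. The mannose 6-phosphate route has a median of 0.38, and the medians of the other 3 related lists lie between -0.02 and 0.08.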

How the data were processed

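For each gene and library the deposited table holds whole-number read counts and FPKM per the file headers. It also holds the authors' own comparison, deposited on the log2 scale with p-values and their −log10. The build is GRCm38.p6 per the file headers and mm10 per the submitters' processing notes. Aligner, counter, strand setting and test are steps not given in the sources used here. Small RNA enrichment is what the labels' protocol speaks of, although the rows are mostly ordinary genes. Each row has at least 10 counts in total.

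Counts were fitted with edgeR 4.0.16 in R 4.3.3 over the whole table: filterByExpr (13243 genes tested, 2593 not), TMM factors, a robust quasi-likelihood fit with group as its term, and Benjamini-Hochberg adjustment over all tested genes. SE was taken as the log2 fold change over the root of the F statistic. limma 3.58.1 (voom) and DESeq2 1.42.0 were alternatives. The code was checked on simulated counts. Listed loci and the transcript lengths implied by counts and FPKM were compared with GENCODE M21, and members matched a transcript within 3 bases. The members and lists were chosen with earlier results of these data known. All members are named. Of each related list, the 4 called genes of lowest p and genes used in the background text are named. Ap1b1, Ap1m1, Ap1s1, Snx5 and Polr2b were named after their values were seen. Lrp2, Adam12, Grb14 and Slc22a18 are named with their lists to mark how they passed the filter. Replicates of a group differed by more than counting error (mean chi-square per gene 1.99 to 4.53) and were kept apart.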

Additional observations from a re-analysis of the deposited data

How the results depend on the processing

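Of 239 repeats of the counts and member values under 16 settings, 218 kept direction and side of the threshold, 15 lost a call, 6 counts moved by over 1.5 times and 0 reversed. Igf2r (log2 fold change 0.53 to 0.67), Igfbp4 (-0.51 to -0.37) and Igfbp7 (1.15 to 1.25) kept their calls under all 16 settings. Igf1r lost its call without filtering (0.08), in DESeq2 (0.08), against a 1.2-fold change (0.09) and without 4 of the 6 libraries in turn, with a range of 0.07 to 0.11 without 1 library, and stood at 0.18 with library totals only. Igfbp6 lost its call with library totals only (-0.64), in DESeq2 (-0.72), against a 1.2-fold change (-0.73) and without 4 of the libraries in turn. Its range was -1.0 to -0.53 over all 6 fits without 1 library, of which those without control replicate 2 (-0.99) and MAOA-KO replicate 3 (-1.0) kept the call, and the stricter filter left it untested. Igfbp3 lost its call only against a 1.2-fold change (-0.26). The test against 1.2-fold, which asks for a larger change, called 6079 genes in place of 9781, with 3 higher and 4 lower among binding protein modulators and 9 higher and 5 lower among receptor signalling components. With library totals only, 7 of the latter were lower in place of 16, and the median of all tested genes moved by 0.09 on the log2 scale. The count of genes called lay between 9355 and 9772 without 1 library. TMM-scaled CPM per kilobase gave the same order of levels, but it differs from FPKM by about 1 factor per library and could hardly change that order. With the replicate block 10205 genes were called and no member gained or lost a call. Deviations of same-numbered libraries correlated at 0.150, 0.0863 and 0.056, and control replicate 3 correlated best with MAOA-KO replicate 2, so the numbers were not taken as pairs. Naming rows by locus was not run, as no member or listed gene had another locus. Depth limits Igf1, Igfbp6, Pappa and H19, none of which had more than 52 counts in a library.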

Other observations

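Some other genes of the related lists, several of them with low counts, were looked at only after their values were seen. Grb14, an inhibitory adaptor of the insulin receptor, had 35, 31 and 38 counts in the controls and 7, 10 and 12 in MAOA-KO. It passed the filter on low counts only through the control libraries, so no test is given. Dlk1, an imprinted growth regulator, had 184, 133 and 142 counts in the controls and 44, 40 and 30 in MAOA-KO (log2 fold change -1.95 ± 0.16). Slc22a18, an imprinted transporter gene, had 9, 12 and 13 counts in the controls and 46, 53 and 40 in MAOA-KO. It passed the filter only through the MAOA-KO libraries, so no test is given for it either. Igfbpl1, a gene related to the binding proteins, had 0, 1 and 0 counts in the controls and 4, 4 and 5 in MAOA-KO, and was not tested. Rheb and Eif4ebp1, which act in growth signalling to translation, were more abundant and fell from 205 to 147 CPM and from 231 to 152 CPM, by 0.48 ± 0.04 and 0.60 ± 0.04 on the log2 scale.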
